A study of Mus musculus with 49 samples.

Results

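Lyz2, Gpnmb, Vcam1, Trem2, Cd68, Cd63 and Lpl are 7 of the 55487 genes in the count table. They were chosen by their measured expression, because each was higher in the bulk liver of BP mice than in the bulk liver of PBS mice, so their values in that comparison are given as a description only. They were then followed through 49 RNA-seq libraries from 6 mice to see in which other organs and cell fractions they differed. All mice of both groups were HuHER2 transgenic and bore a palpable mammary tumor; HER2 is a growth factor receptor gene, and the promoter that drives the transgene and the sex of the mice are not given in the sources used here. Palpation began at an age of 7 months, and the age at injection is not given in the sources used here. A single intravenous dose of PBS was given to 3 mice, and BP, an iron oxide nanoparticle that the labels name only by this code, to 3 mice at 5 mg Fe each. The design text puts organ collection at day 7, while a protocol label names day 31. Liver, spleen, bone marrow, tumor, lymph node and lung were sequenced whole (bulk) from all 6 mice. From BP mice, cells that held nanoparticles were also separated magnetically after digestion of a section of each organ except lung. This nanoparticle-associated (sorted) fraction is represented by 3 libraries in liver, spleen, marrow and tumor and by 1 in lymph node.

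These genes are read in many tissues as marks of macrophages, the cells that engulf and digest particles. Macrophages of the liver, called Kupffer cells, line its blood vessels and clear particles from the blood. In macrophages that have taken up lipid or other material, genes of the lysosome, the digestive compartment, and receptors such as Trem2 are known to be raised together. Each of the 7 genes is also made by other cells, so a level in a bulk organ does not name its source. In the GRCm38 annotation, the build that the processing notes call mm10, the whole genes lie as follows. The first of them is Lyz2 (ENSMUSG00000069516) at chr10:117277331-117282321 (minus strand). On other chromosomes lie Gpnmb (ENSMUSG00000029816) at chr6:49036546-49070929 (plus strand), Vcam1 (ENSMUSG00000027962) at chr3:116109949-116129688 (minus strand) and Trem2 (ENSMUSG00000023992) at chr17:48346401-48354147 (plus strand). The rest are Cd68 (ENSMUSG00000018774) at chr11:69664213-69666153 (minus strand), Cd63 (ENSMUSG00000025351) at chr10:128900989-128912822 (plus strand) and Lpl (ENSMUSG00000015568) at chr8:68880491-68907448 (plus strand). RSEM counts were summed over each gene, so no exon or UTR is singled out.

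Library totals ran from 9362264 to 19734849 expected counts, and levels below are CPM, the usual measure of a gene's share of its library total. Between 17240 and 23275 genes were detected per library. At this depth a gene at 0 counts may still stand at up to 0.152 to 0.32 CPM, which is 3 counts and covers counting error only. The mitochondrial share of a library was 48.2 to 57.2% for sorted liver cells and 5.67 to 7.06% for BP bulk liver, which lowers the CPM of every other gene in the former. Fold changes on the log2 scale therefore come from edgeR with TMM scaling, which compares each gene with the bulk of the other genes. The hepatocyte gene Alb stood at 7952 to 17052 CPM in nanoparticle-associated liver cells and at 55774 to 70270 CPM in BP bulk liver. The mouse is the replicate in every comparison. The main fits between sorted and bulk cells do not pair the libraries of the same mouse. Fits with the mouse as a block were alternatives.

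Lyz2 encodes the lysozyme of macrophages and neutrophils, and Lyz1 is a close copy expressed in Paneth cells and some macrophages. The authors' counting tool divides reads that match both, so the stretch below shows what separates them. It covers bases 37 to 156 of the 444-base coding sequence in the GENCODE M21 annotation of GRCm38, with the differing bases in capitals.
Lyz2: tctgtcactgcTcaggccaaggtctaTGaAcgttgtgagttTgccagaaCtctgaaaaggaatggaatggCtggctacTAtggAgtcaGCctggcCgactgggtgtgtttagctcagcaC
Lyz1: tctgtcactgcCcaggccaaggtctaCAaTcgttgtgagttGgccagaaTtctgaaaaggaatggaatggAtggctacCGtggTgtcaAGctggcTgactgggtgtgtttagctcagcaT
The coding sequences differ at 22 positions and are 95% identical, with a longest identical run of 118 bases. Reads inside such a run cannot be assigned by sequence, and Lyz2 values have that uncertainty. Division of reads leaves counts that are not whole, which Lyz2 had in 6 of 49 libraries and in no liver library. Lyz1 took 1.52 to 1.997% of the summed Lyz1 and Lyz2 counts in BP liver and 1.09 to 3.87% in PBS liver. It took 24.4 to 30.8% in BP lung.

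Promoters were available for 5 of the 7 genes in the RefSeq table (GRCm38.p6), as 250 bases before and 50 after the start site. Gpnmb, Trem2 and Cd68 are shown because each holds the AP-1 letters TGANTCA, the type of site bound by Fos and Jun proteins. In the sequences below, capitals mark TGANTCA or the PU.1 letters GAGGAA, either strand. The reverse of GAGGAA is TTCCTC, and PU.1 is the macrophage transcription factor. Gpnmb lies at chr6:49036268-49036567 on the plus strand, Trem2 at chr17:48346151-48346450 on the plus strand and Cd68 at chr11:69666121-69666420 on the minus strand.
Gpnmb: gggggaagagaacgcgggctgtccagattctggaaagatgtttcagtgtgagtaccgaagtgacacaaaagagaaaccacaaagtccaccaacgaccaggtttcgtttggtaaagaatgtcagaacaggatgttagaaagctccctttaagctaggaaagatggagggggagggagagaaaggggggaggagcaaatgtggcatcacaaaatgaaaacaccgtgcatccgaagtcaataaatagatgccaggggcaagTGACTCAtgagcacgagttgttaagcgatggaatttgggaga
Trem2: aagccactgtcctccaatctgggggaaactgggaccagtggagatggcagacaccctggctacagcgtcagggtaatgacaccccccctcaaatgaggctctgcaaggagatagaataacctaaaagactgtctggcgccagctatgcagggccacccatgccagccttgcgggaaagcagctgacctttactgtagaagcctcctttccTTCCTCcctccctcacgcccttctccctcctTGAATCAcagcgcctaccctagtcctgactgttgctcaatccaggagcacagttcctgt
Cd68: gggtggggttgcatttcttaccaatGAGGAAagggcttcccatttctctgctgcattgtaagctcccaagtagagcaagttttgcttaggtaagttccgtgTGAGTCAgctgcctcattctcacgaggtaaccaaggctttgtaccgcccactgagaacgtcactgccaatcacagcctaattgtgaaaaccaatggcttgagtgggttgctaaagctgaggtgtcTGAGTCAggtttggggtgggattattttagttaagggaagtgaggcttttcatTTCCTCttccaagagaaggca
The AP-1 letters stood at base 9 in Gpnmb, at -9 in Trem2 and at -149 and -24 in Cd68, counted from the start site. They occurred in 7.81% of 32851 promoters of this length. The PU.1 letters were present in Trem2, Cd68 and Cd63, and in 28.3% of promoters. Neither motif was found in the Lyz2 promoter, and the E-box letters CACGTG and TCATGTG were in none of the 5. A match is a description of the letters only.

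In bulk liver, all 7 genes were higher in BP than in PBS mice in every library, with no overlap between groups. A total of 3 of 12740 genes passed edgeR's threshold (adjusted p under 0.05), which is 0.0235%; these 3 were Lyz2, Gpnmb and Vcam1, and the other 4 did not pass. Since this comparison chose the genes, nothing is read from the count. Values that do not overlap in this direction were found for 6.15% of all tested genes. In bulk tissue, more cells of a type and more RNA per cell cannot be told apart.

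Lyz2 stood at 92.2, 96.8 and 92.9 CPM in PBS liver and at 267, 274 and 268 CPM in BP liver, a 2.87-fold ratio of means. Both groups were tight, with an SD of 2.49 and 3.65 CPM. Cd68, a lysosomal membrane glycoprotein used as a pan-macrophage marker, stood at 13.4, 11.5 and 13.1 CPM in PBS liver and at 25.7, 31.3 and 24.0 CPM in BP liver, a 2.13-fold ratio. Cd63, a tetraspanin of late endosomes and exosomes, stood at 3.47, 4.54 and 6.41 CPM in PBS liver and at 12.8, 13.7 and 15.5 CPM in BP liver. The lowest BP liver thus lay above the highest PBS liver for each of these 3 genes.

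Gpnmb, a transmembrane glycoprotein of lysosome-rich macrophages, had only 3, 1 and 3 counts in the 3 PBS livers, or 7 in all. BP livers held 279 counts in all, at 6.34, 5.13 and 10.6 CPM. The share of counts was 42.1 times as high, with a 95% counting interval of 20.2 to 105.7 (exact binomial). The interval gives the counting precision of reads pooled over 3 mice per group and is no test, since this comparison chose the gene. Trem2, a lipid-sensing receptor that signals through Tyrobp, had 8, 2 and 4 counts in PBS liver and 3.52, 2.81 and 4.53 CPM in BP liver. That share, pooled over mice, was 10.3 times as high.

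Vcam1, an adhesion molecule of activated endothelium and of splenic and marrow macrophages, stood at 13.9, 17.1 and 19.3 CPM in PBS liver and at 44.9, 59.7 and 37.2 CPM in BP liver. Lpl, the lipase that frees fatty acids from circulating triglyceride, stood at 10.2, 11.8 and 13.9 CPM in PBS liver and at 44.4, 32.7 and 26.8 CPM in BP liver. The ratios of means were 2.81-fold and 2.89-fold. Adipoq, a defining gene of adipocytes, which also express Lpl, was at 0.0845, 0.0 and 0.0668 CPM in PBS liver and at 0.313, 1.82 and 0.312 CPM in BP liver. All 3 BP livers thus lay above all 3 PBS livers for Adipoq. The PBS values and those of BP mice 1 and 3 lie near or below the counting floor of 0.152 to 0.32 CPM. Among BP livers, mouse 2 had the most Adipoq and mouse 1 the most Lpl. The part of Adipoq-expressing cells in the Lpl values was not tested.

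Markers of other sources were measured beside these values. In BP liver the 8 lung epithelium genes summed to 117 to 163 CPM, against 60.9 to 159 CPM in PBS liver. The largest BP liver sum is 0.27% of the lowest sum in a BP lung library. That percentage of the highest BP lung level would be 18.4 CPM for Lyz2, 0.942 CPM for Cd63, 0.61 CPM for Lpl, 0.192 CPM for Vcam1, 0.181 CPM for Cd68, 0.105 CPM for Gpnmb and 0.0422 CPM for Trem2. The 10 monocyte genes summed to 20.1 to 32.4 CPM in BP and 19.1 to 21.9 CPM in PBS liver, and the 12 neutrophil genes to 32.8 to 52.5 and 33.9 to 88.4 CPM. Of the 23 macrophage-list genes, 19 had higher estimates in BP liver and none passed with edgeR, with a median log2 change of 0.31 (all genes 0.0011). At an unadjusted p under 0.05 the list had 9 genes (3.56% of all genes tested), and DESeq2 called 1 (0.29% of all). For the 12 Kupffer cell genes the estimate was higher for 9 and none passed with edgeR (3 at an unadjusted p under 0.05, 1 by DESeq2). The lung epithelium list had 7 of 8 estimates above 0, a median log2 change of 0.57 and 3 genes under 0.05 unadjusted. The marrow and lymphoid stroma list had 5 of 10 tested estimates above 0 and 5 genes under 0.05 unadjusted. Neither list had a gene past edgeR's threshold. The part of all these lists in the members' values was not tested.

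**Figure D1:**
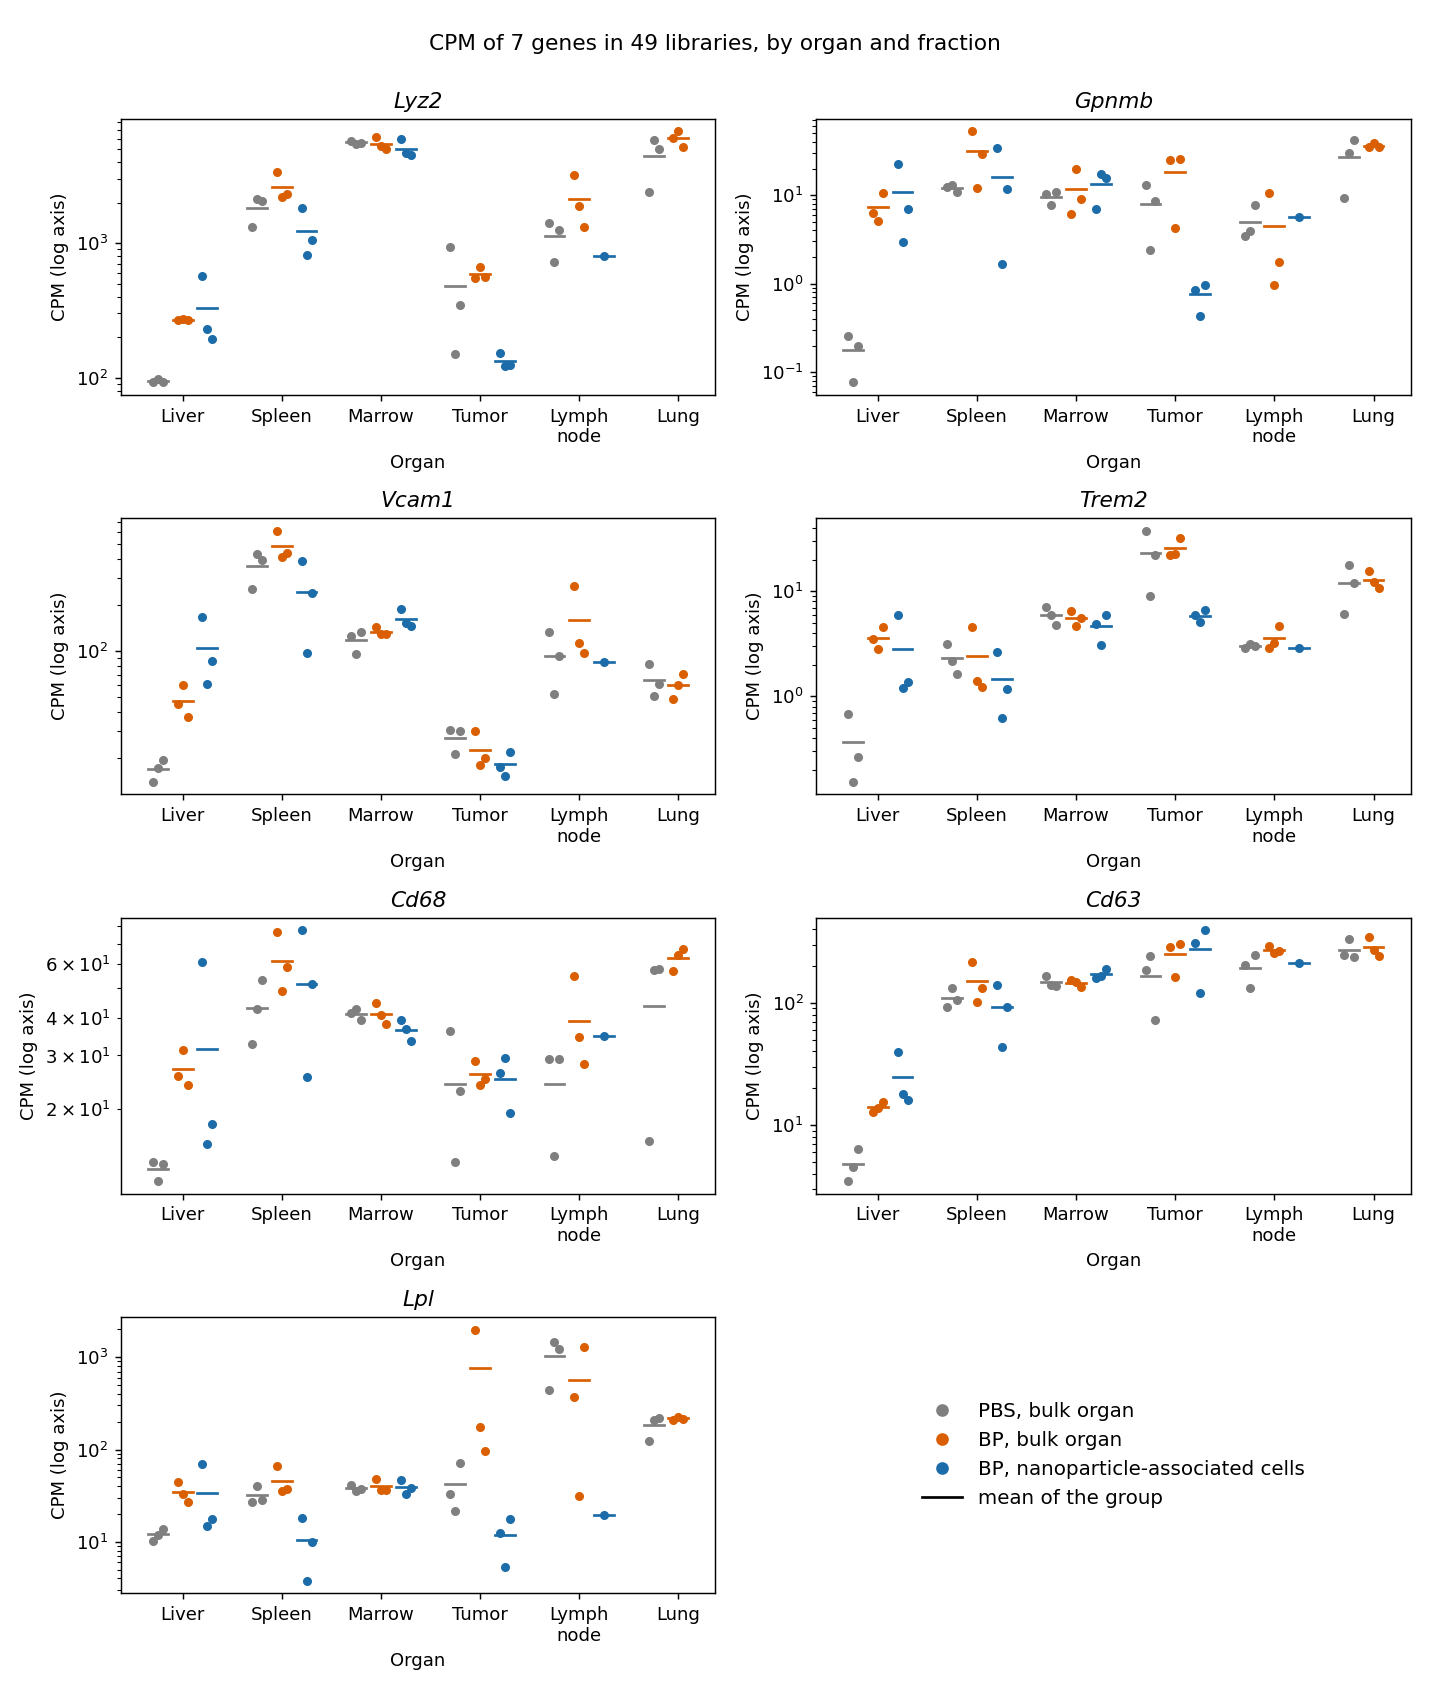
CPM (log axis) of each gene in every library, by organ on the x axis; gray points are PBS bulk, orange BP bulk and blue BP nanoparticle-associated libraries, and lines are group means. PBS liver, the low side of the comparison that chose the genes, lies lowest for 6 of the 7 genes. Lpl is lowest in nanoparticle-associated spleen cells.

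Across the 17 groups the levels of 1 gene spanned 4.97-fold (Cd68) to 204-fold (Gpnmb) between the highest and lowest group mean of the 16 groups with 3 libraries. PBS liver had the lowest mean for 6 of the 7 genes, and for Lpl nanoparticle-associated spleen cells did, at 10.5 ± 7.07 CPM (SD, n = 3). Being the low side of the comparison that chose the genes, PBS liver has a rank shaped by that choice. Its Gpnmb mean of 0.177 CPM rests on 3, 1 and 3 counts, near the counting floor. The top means were 6034 ± 807 CPM in BP lung for Lyz2, 36.2 ± 2.25 CPM in BP lung for Gpnmb, 489 ± 109 CPM in BP spleen for Vcam1 and 25.6 ± 5.44 CPM in BP tumor for Trem2. Those of the remaining genes were 62.9 ± 5.35 CPM in BP lung for Cd68, 287 ± 55.8 CPM in BP lung for Cd63 and 1039 ± 527 CPM in PBS lymph node for Lpl (all SD, n = 3). Neighbours in each gene's order of 16 group means mostly overlapped: of 15 neighbouring pairs, the libraries did not overlap in 3 for Lyz2, 1 for Gpnmb, 1 for Vcam1, 0 for Trem2, 1 for Cd68, 4 for Cd63 and 2 for Lpl. For Lyz2 the separated pairs were PBS lymph node over BP tumor, BP liver over nanoparticle-associated tumor cells, and the latter over PBS liver.

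Outside the liver, none of the 7 genes passed edgeR's threshold between BP and PBS mice in spleen, marrow, tumor, lymph node or lung, where edgeR called 0 of 15195, 13969, 14535, 15341 and 15714 genes. At an unadjusted p under 0.05 edgeR held 108, 184, 867, 554 and 137 genes in these organs (0.711, 1.32, 5.96, 3.61 and 0.872%). DESeq2 called 0, 4, 138, 11 and 0 (0, 0.0286, 0.961, 0.0719 and 0%). Of the members, Gpnmb in spleen and Lpl in tumor were under 0.05 unadjusted, and DESeq2 called Lpl in tumor only. A p that misses the threshold does not show that an organ did not respond.

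In spleen the estimate was above 0 for all 7 genes (Trem2 turned to -0.14 with the replicate number as a block), with a median log2 change of 0.46 against 0.0054 over all genes tested. Lyz2 stood at 1318, 2131 and 2048 CPM in PBS and at 3367, 2216 and 2342 CPM in BP spleen, a log2 change of 0.47 ± 0.34 (SE, edgeR adjusted p = 1). Its groups did not overlap, which was true in this direction of 2.71% of tested genes. Gpnmb stood at 12.5, 12.95 and 10.9 CPM in PBS and at 52.7, 11.9 and 29.3 CPM in BP spleen, so mouse 2 lay among the controls. Its log2 estimate was 1.31 ± 0.43 (edgeR adjusted p = 1). BP mouse 1 was the highest of the 3 BP spleens for all 7 genes, and Trem2's estimate of 0.04 ± 0.53 (edgeR) turned to -0.75 at the lowest when 1 library was left out. In the same spleens the macrophage list had 22 of 23 estimates above 0 and the neutrophil list 12 of 12, none past edgeR's threshold (macrophage list: 1 at an unadjusted p under 0.05, 0 by DESeq2). Their median log2 changes were 0.30 and 0.60. Lung epithelium genes had 8 of 8 above 0 (median 1.14), adipocyte and muscle genes 7 of 8 (1.02) and monocyte genes 10 of 10 (0.20). Hepatocyte genes had 1 of 12 above 0 (-0.36).

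In lymph node, Cd63 did not overlap in CPM of all counts. PBS libraries held 203, 133 and 246 CPM and BP libraries 293, 255 and 268 CPM. The log2 change was 0.33 ± 0.20 (edgeR adjusted p = 0.866). The lymph node library of PBS mouse 2 had a mitochondrial share of 28.6%. Without mitochondrial counts, Cd63 stood at 223, 187 and 278 CPM in PBS and at 317, 270 and 293 CPM in BP, and the groups overlapped. Non-overlap in CPM of all counts in this direction held for 5.31% of genes. The lymph node estimates were 0.77 ± 0.38 for Lyz2, 0.64 ± 0.38 for Vcam1 and 0.57 ± 0.26 for Cd68 (edgeR adjusted p = 0.866 each), with overlap. Those of Trem2 and Gpnmb were 0.01 and -0.41, and Lpl follows below. The macrophage list there had 18 of 23 estimates above 0 (median 0.46), with 0 past edgeR's threshold and 4 under 0.05 unadjusted. In lung the estimate was above 0 for 6 genes and in marrow for 5, with overlap for all 7 in both, and the members' medians were 0.25 and 0.02 on the log2 scale. In marrow, Lyz2 lay between 4512 and 6188 CPM in all 9 libraries. The log2 estimates of Gpnmb, Vcam1, Lpl and Trem2 there were 0.32, 0.22, 0.10 and -0.07, and those of Lyz2, Cd68 and Cd63 were -0.01, 0.02 and 0.01 (the last 2 turned to -0.00225 and -0.016 under library totals). The PBS lung of mouse 1 was the lowest of its group for 5 of the 7 genes, including Lyz2 at 2403 CPM and Cd68 at 15.6 CPM. The largest lung estimates were 0.52 ± 0.47 for Cd68, 0.44 ± 0.45 for Lyz2 and 0.43 ± 0.49 for Gpnmb, and Vcam1 was at -0.06. In tumor, Gpnmb had 1.33 ± 0.84 (edgeR adjusted p = 0.807) and Cd63 0.72 ± 0.50 (edgeR adjusted p = 0.816). Lyz2, Trem2, Cd68 and Vcam1 had 0.42, 0.25, 0.24 and -0.10 there, and the groups overlapped for each of these genes.

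**Figure D2:**
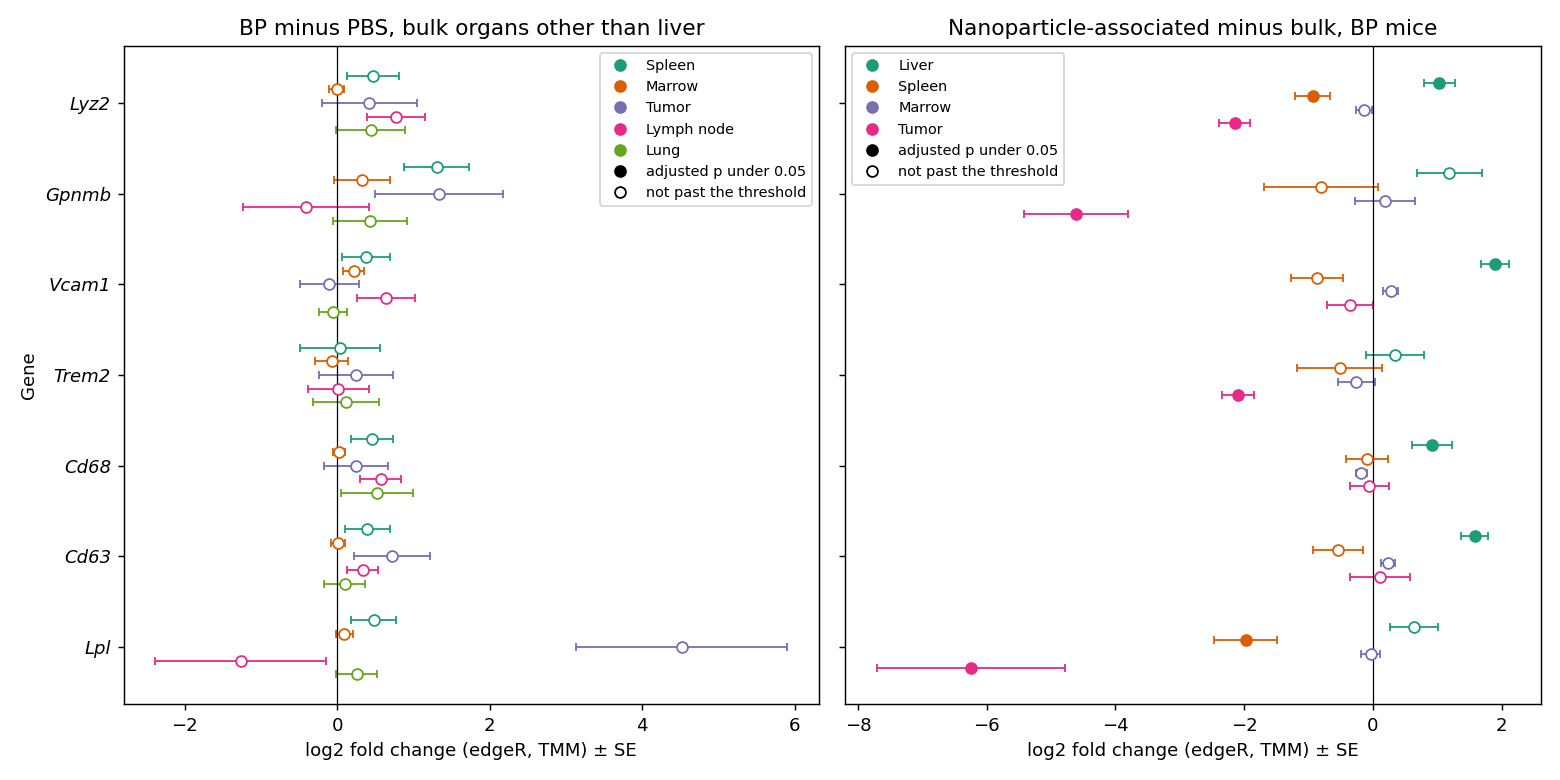
log2 fold changes with SE (edgeR, TMM, n = 3 against 3) of each gene on the y axis; the left panel gives BP minus PBS in the 5 organs other than liver, the right panel nanoparticle-associated minus bulk cells of BP mice, and filled points have an adjusted p under 0.05. No point on the left is filled, and on the right the liver points lie above 0 and those of spleen and tumor mostly below. The fits on the right do not pair the libraries of the same mouse.

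The largest difference outside the liver was that of Lpl in tumor. PBS tumors held 33.3, 21.8 and 71.7 CPM and BP tumors 1997, 176 and 97.0 CPM, without overlap (5.27% of genes tested did not overlap in this direction). The log2 change was 4.52 ± 1.39 with an edgeR adjusted p of 0.797, while DESeq2 gave an adjusted p of 0.00465, and leaving out 1 library moved the estimate between 1.66, without BP mouse 1, and 5.11. The BP tumor of mouse 1 also had the highest mitochondrial share of the 6 bulk tumors, at 19.5% against 3.06 to 8.33% in the others, and its part in the Lpl value was not tested. Adipoq moved with it: 6.84, 0.465 and 15.5 CPM in PBS tumor and 869, 116 and 39.8 CPM in BP tumor. The 14 adipocyte and muscle genes summed to 13.9 to 301 CPM in PBS and to 433 to 14868 CPM in BP tumors, where 11 of 11 tested genes had estimates above 0 and a median of 5.77. None of these passed edgeR, 10 were under 0.05 unadjusted and DESeq2 called 4. Estimates were also above 0 for 11 of 12 endothelium (median 1.95), 9 of 11 Kupffer cell (1.52) and 9 of 10 monocyte genes (1.49). The stroma list had 10 of 10 (1.01), the lymphocyte list 7 of 7 (1.14) and the macrophage list 20 of 23 (0.44). Among the rest were 4 of 8 neutrophil (-0.11) and 4 of 11 mammary epithelium genes (-0.28). None of these lists had a gene past edgeR's threshold, and their part in the Lpl values was not tested.

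In lymph node the Lpl estimate was below 0, with 446, 1455 and 1216 CPM in PBS and 373, 31.4 and 1289 CPM in BP mice and a log2 change of -1.27 ± 1.12 (edgeR adjusted p = 0.866). Leaving out 1 library moved it between -2.78, without BP mouse 3, and -0.59, without PBS mouse 2. Adipoq stood at 148, 542 and 517 CPM in PBS and 115, 8.22 and 562 CPM in BP lymph nodes, so the library lowest for Lpl was also lowest for Adipoq. Whether the BP change differed among these organs was tested with edgeR over 30 libraries, where 0.0599% of 18349 genes passed. Lpl had an F of 4.89 (edgeR adjusted p = 0.292), and each other member an edgeR adjusted p of 1. Organs of 1 mouse are not independent in that test. The part of adipose tissue in the Lpl values was not tested.

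**Figure D3:**
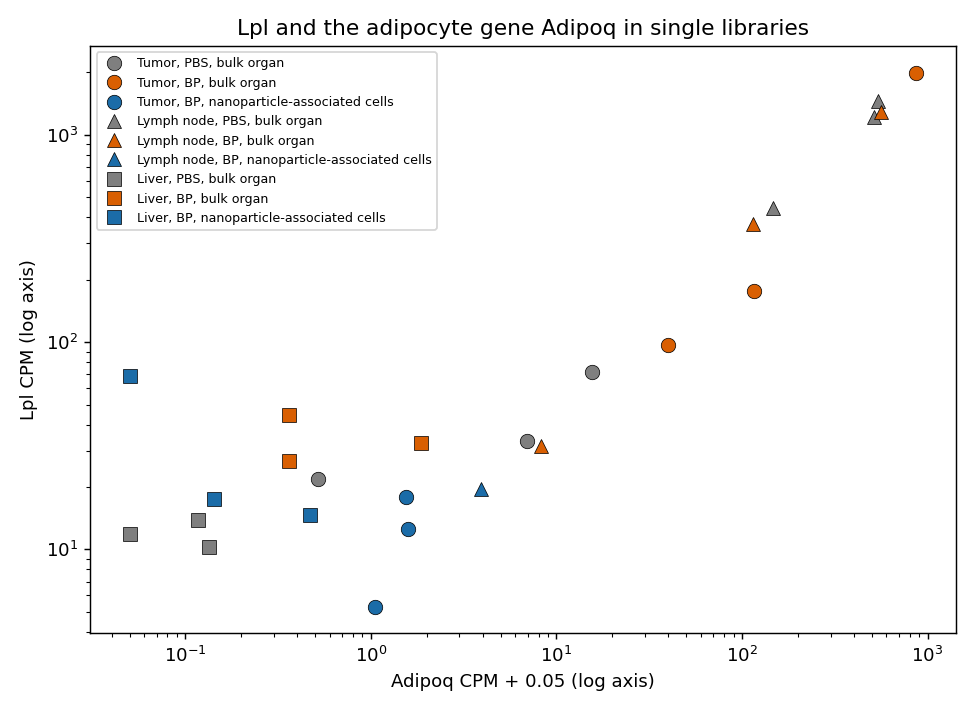
Lpl CPM (log axis) against Adipoq CPM + 0.05 (log axis) in single libraries of tumor (circles), lymph node (triangles) and liver (squares), colored by group as in the panels of member levels. Tumor and lymph node libraries with the most Adipoq are also those with the most Lpl, and the liver libraries hold little Adipoq at 10.2 to 69.0 CPM of Lpl.

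In nanoparticle-associated liver cells, Lyz2, Vcam1, Cd68 and Cd63 rose against bulk liver of the same mice, and none fell. This comparison shares its bulk libraries with the one that chose the genes. Of all 13247 genes tested 74.8% were called, 37.3% higher and 37.5% lower, and the members' median log2 change was 1.03 against 0.0089 for all genes. Vcam1 stood at 166, 60.6 and 85.6 CPM in the sorted cells and at 44.9, 59.7 and 37.2 CPM in bulk, a log2 change of 1.90 ± 0.21 (edgeR adjusted p = 4.09e-05). Its groups did not overlap. Cd63 stood at 39.8, 18.1 and 15.9 CPM against 12.8, 13.7 and 15.5 CPM, 1.58 ± 0.21 on the log2 scale (edgeR adjusted p = 1e-04), and its groups also did not overlap. Non-overlap in this direction held for 20% of genes.

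Lyz2 stood at 569, 231 and 194 CPM against 267, 274 and 268 CPM. Only mouse 1 was higher in CPM, yet the TMM log2 change was 1.03 ± 0.24 (edgeR adjusted p = 0.00379). Scaled by library totals alone, the change was 0.30 with an adjusted p of 0.322. That scaling moves the median of all genes to -0.80. Cd68 behaved alike: 61.2, 15.3 and 17.9 CPM against 25.7, 31.3 and 24.0 CPM gave 0.92 ± 0.32 under TMM (edgeR adjusted p = 0.0254) and 0.22 under library totals (adjusted p = 0.519). Cd68 was also not called without mouse 1 (adjusted p = 0.174) or without mouse 3 (adjusted p = 0.0563). Vcam1 and Cd63 kept their calls under library totals.

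Gpnmb, Trem2 and Lpl did not pass. Gpnmb at 22.3, 2.97 and 6.96 CPM had an estimate of 1.19 ± 0.50 (edgeR adjusted p = 0.0549), which passed with the mouse as a block (1.04, adjusted p = 0.033), with DESeq2 (adjusted p = 0.025), without the filter on low counts (adjusted p = 0.00554) and without mouse 2 (adjusted p = 0.0104). Leaving out 1 mouse moved the Gpnmb estimate between 0.29, without mouse 1 (adjusted p = 0.601), and 1.70. Trem2 at 5.98, 1.20 and 1.37 CPM had 0.34 ± 0.45 (edgeR adjusted p = 0.503), and Lpl at 69.0, 14.7 and 17.6 CPM had 0.64 ± 0.38 (edgeR adjusted p = 0.154). Under library totals the Trem2 and Lpl estimates were -0.34 and -0.03. Mouse 1 was the highest of the 3 sorted livers for all 7 genes. In the sorted cells of the other two mice, Trem2 was below bulk of the same mouse even when mitochondrial counts were left out, at ratios of 0.936 and 0.643.

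**Figure D4:**
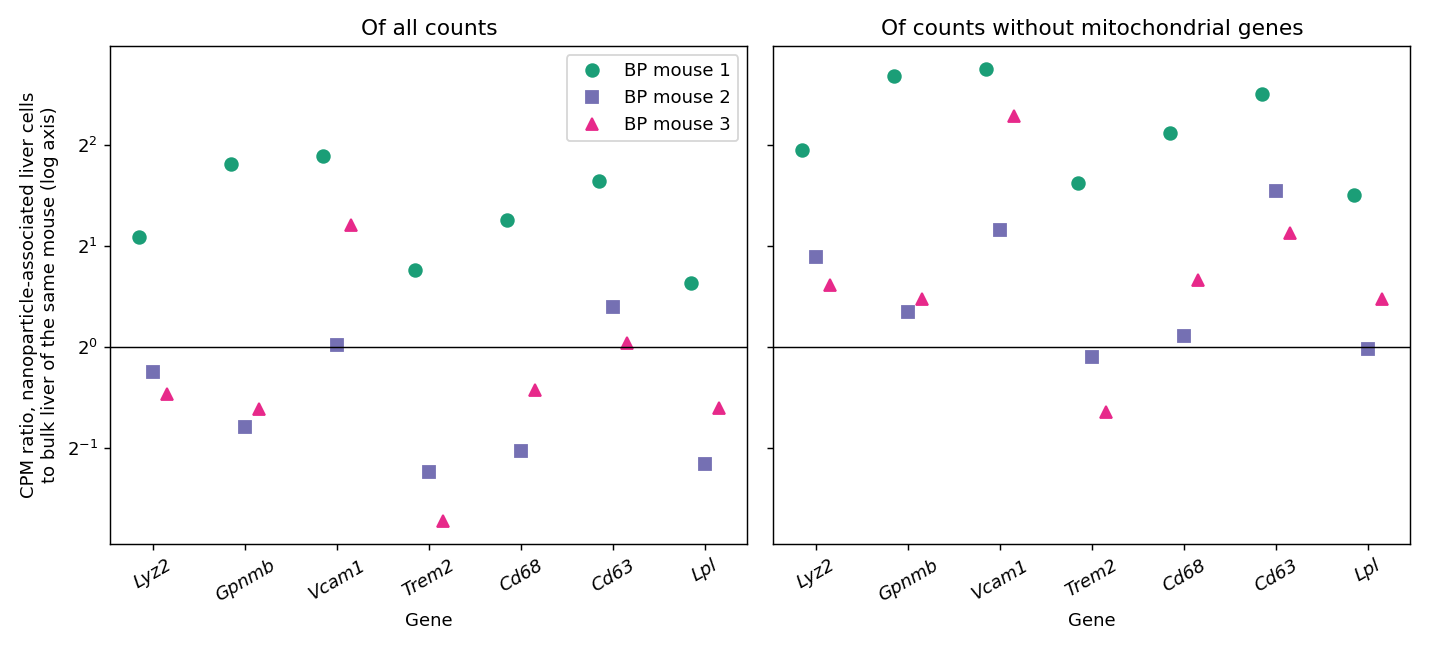
Ratio of CPM in nanoparticle-associated liver cells to bulk liver of the same BP mouse (log axis) per gene, of all counts (left) and without mitochondrial genes (right); the line marks 1 and each symbol is 1 mouse. Mouse 1 lies above 1 for every gene in both panels, and without mitochondrial counts Trem2 is above 1 in 1 of 3 mice.

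Other cells were measured in the same sorted livers. All 14 endothelium genes rose, with Pecam1, an adhesion gene of endothelium, at 205 ± 57.9 against 21.2 ± 2.39 CPM (SD, n = 3; log2 change 4.08, edgeR adjusted p = 1.66e-07). Gpihbp1, the endothelial protein that holds lipoprotein lipase in capillaries, stood at 124 against 14.1 CPM (log2 change 3.92). Clec4f, a defining gene of Kupffer cells, was at 495, 103.6 and 90.1 CPM in sorted cells and 379, 481 and 280 CPM in bulk (log2 change -0.08, edgeR adjusted p = 0.878). Of the 12 Kupffer cell genes, 2 rose and 1 fell, 8 estimates were above 0, and the median log2 change was 0.21. All 16 dissociation response genes, which are known to rise during tissue digestion, also rose, among them Fos with a log2 change of 10.11. The macrophage list had 16 of 23 genes higher and 0 lower, among them Cd14, a receptor for bacterial lipid, from 5.39 to 158 CPM (log2 change 5.72) and Itgam, an integrin chain of myeloid cells, from 1.83 to 13.9 CPM (3.78). The lipid-loaded and lysosomal list had 18 higher and 4 lower of 31. The part of these cells and of digestion in the members' changes was not tested.

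In nanoparticle-associated spleen cells the direction was the reverse, and all 7 estimates were below 0, that of Cd68 at -0.09 ± 0.33 (edgeR adjusted p = 0.849). Cd68 turned to 0.12 without mouse 2 and stood at 1.02 times bulk in mouse 1. Lyz2 fell, from 3367, 2216 and 2342 CPM in bulk to 1841, 811 and 1064 CPM in sorted cells (log2 change -0.94 ± 0.27, edgeR adjusted p = 0.0313), and the groups did not overlap (34.3% of genes in this direction). Lpl fell from 66.3, 35.1 and 37.1 CPM to 17.9, 3.79 and 9.82 CPM (-1.98 ± 0.49, edgeR adjusted p = 0.0172), also without overlap. The call for Lyz2 was lost without mouse 2 (adjusted p = 0.12) or mouse 3 (adjusted p = 0.168), and that of Lpl without mouse 3 (adjusted p = 0.13). The estimates with 1 mouse left out ranged from -1.09 to -0.79 for Lyz2 and from -2.20 to -1.72 for Lpl. Of all 15026 genes tested 42.2% were called, 20.2% higher and 22% lower.

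With the mouse as a block, Vcam1, Cd63 and Gpnmb passed as well. The share of all genes called under that fit is not given here, so nothing is read from the number of members called. Vcam1 stood at 614, 414 and 440 CPM in bulk and 390, 97.9 and 240 CPM in sorted cells (-0.87 ± 0.41, edgeR adjusted p = 0.131, blocked -1.01 with 0.017). Gpnmb stood at 52.7, 11.9 and 29.3 CPM against 34.5, 1.67 and 11.8 CPM (-0.81, edgeR adjusted p = 0.5, blocked -1.22 with 0.0247), and it was lower in all 3 mice. Cd63 had -0.55 (edgeR adjusted p = 0.3, blocked -0.61 with 0.0154). Sorted cells of mouse 2 were the lowest for all 7 genes. In the same fractions the Kupffer cell list had 4 of 11 genes lower, among them Slc40a1, the iron exporter (log2 change -2.53), and the macrophage list had 3 higher and 8 lower of 23. Cd14 rose from 14.6 to 515 CPM (log2 change 5.31), and the stroma list had 10 of 12 lower. The 16 dissociation genes had 14 higher.

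In nanoparticle-associated tumor cells, Lyz2, Gpnmb, Trem2 and Lpl fell and Vcam1, Cd68 and Cd63 did not pass. Lyz2 fell from 548, 668 and 563 CPM to 153, 121 and 124 CPM (-2.15 ± 0.24, edgeR adjusted p = 0.0108). Gpnmb fell from 25.2, 4.25 and 25.4 CPM to 0.86, 0.43 and 0.98 CPM (-4.61 ± 0.81, edgeR adjusted p = 0.0282). Trem2 fell from 22.3, 22.8 and 31.9 CPM to 5.90, 5.08 and 6.65 CPM (-2.09 ± 0.25, edgeR adjusted p = 0.0118). None of these 3 genes overlapped between fractions (19.1% of all genes in this direction). Lpl fell from 1997, 176 and 97.0 CPM to 12.6, 5.30 and 17.8 CPM (-6.24 ± 1.47, edgeR adjusted p = 0.0462), a call not made with the mouse as a block (-4.91, adjusted p = 0.0684). Leaving out 1 mouse moved the Lpl estimate between -7.09 and -3.44, the latter without mouse 1.

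Of all 14615 genes tested, 9.04% were called, 5.87% higher and 3.17% lower. All 4 calls were lost with any 1 mouse left out, when edgeR called 0 to 46 genes in all; the members' largest adjusted p was then 0.156 for Lyz2, 0.212 for Gpnmb, 0.181 for Trem2 and 0.183 for Lpl. The estimates then ranged from -2.18 to -2.09 for Lyz2, from -4.86 to -4.17 for Gpnmb and from -2.16 to -2.05 for Trem2. The DESeq2 adjusted p of each of the 4 was 5.14e-05 or less, where DESeq2 called 22.7% of genes. Cd68 stood at 26.0 CPM in bulk on average and at 25.03 CPM in sorted cells, a log2 change of -0.06 ± 0.30 (edgeR adjusted p = 0.915), and Cd63 at 251 against 275 CPM (0.11 ± 0.46, edgeR adjusted p = 0.895). The macrophage list had 0 higher and 14 lower of 23, among them Cx3cr1, a chemokine receptor (-2.62), Mrc1, the mannose receptor (-2.36) and Tyrobp (-1.83). The 11 mammary epithelium genes summed to 14973 to 16834 CPM in sorted cells and to 10843 to 23486 CPM in bulk; of 10 tested, 5 estimates were above and 5 below 0, and 1 gene rose. All 16 dissociation response genes had estimates above 0 in sorted tumor cells and 14 rose, with a median log2 change of 3.25, and their part in the members' changes was not tested. Adipoq was at 1.00 to 1.54 CPM in the sorted cells, and its part in the fall of Lpl was not tested.

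In marrow no member was called between fractions (edgeR; 1 at an unadjusted p under 0.05, 0 by DESeq2), while 7.69% of 13573 genes were, 4.8% higher and 2.9% lower (25.2% unadjusted, 11.3% by DESeq2). Vcam1 was higher in all 3 mice, at 190, 153 and 147 CPM against 143, 130 and 130 CPM, with a log2 change of 0.27 ± 0.11 (edgeR adjusted p = 0.169); 15.3% of genes did not overlap in this direction, as Vcam1 and Cd63 did not. Lyz2 was lower in all 3 mice, at ratios of 0.96, 0.878 and 0.896. With the mouse as a block edgeR called 2719 genes in marrow in place of 1044, and still no member. Of the 16 dissociation response genes, 13 rose in sorted marrow cells.

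The change between sorted and bulk cells differed among spleen, marrow and tumor for Lyz2 (edgeR F = 18.4, adjusted p = 0.00454), Lpl (F = 12.2, adjusted p = 0.0161) and Gpnmb (F = 7.94, adjusted p = 0.0426), in a test where 11.3% of 16854 genes passed. It did not pass for Trem2 (edgeR adjusted p = 0.0931), Vcam1 (0.235), Cd63 (0.552) or Cd68 (0.989). Liver was left out because its bulk libraries chose the genes, and organs of 1 mouse are not independent. The 1 lymph node library of sorted cells has no replicate: Cd68 stood there at 34.8 CPM, above the 3 PBS lymph nodes at up to 29.1 CPM and beside 34.4 CPM in bulk of the same mouse. Gpnmb stood at 5.61 CPM (95% exact Poisson counting interval 4.22 to 7.32) and at 0.961 CPM in that mouse's bulk node, and Lpl at 19.5 against 31.4 CPM. The PBS lymph nodes held 3.48 to 7.72 CPM of Gpnmb, a range that includes the sorted value, and 446 to 1455 CPM of Lpl.

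The partners of the members are given mainly between sorted and bulk cells. Between BP and PBS mice, edgeR called 0 of this list in each organ, and DESeq2 called 2 in tumor. Estimates were above 0 for 16 of 26 tested genes in liver, 18 of 27 in spleen and 12 of 28 in marrow. In tumor, lymph node and lung they were above 0 for 14 of 27, 12 of 29 and 21 of 28. Tyrobp, the signalling adaptor of Trem2, rose in sorted liver cells (log2 change 1.18, edgeR adjusted p = 0.00127) and fell in sorted tumor cells (-1.83, edgeR adjusted p = 0.0242), and Trem2 itself fell in tumor and did not pass in liver. Itga4, a chain of the integrin that binds Vcam1, rose in sorted liver cells (1.05, edgeR adjusted p = 0.00399) and did not pass in spleen (0.17, edgeR adjusted p = 0.539). Icam1, another adhesion molecule of endothelium, rose in sorted liver cells (4.18, edgeR adjusted p = 1.68e-07), marrow cells (1.74, edgeR adjusted p = 0.00103) and spleen cells (1.68, edgeR adjusted p = 0.00522). Cd9, a tetraspanin like Cd63, rose in sorted liver cells (1.72, edgeR adjusted p = 4.64e-05). Angptl4, an inhibitor of lipoprotein lipase, fell in sorted liver (-1.44, edgeR adjusted p = 0.00805) and spleen cells (-1.87, edgeR adjusted p = 0.0101). Of the 30 partners and relatives, 15 rose and 12 fell in liver of 28 tested, 4 rose and 7 fell in spleen of 28, 3 rose and 0 fell in marrow of 28, and 2 rose and 3 fell in tumor of 25. Over all genes tested, 37.3% rose and 37.5% fell in liver, 20.2 and 22% in spleen, 4.8 and 2.9% in marrow, and 5.87 and 3.17% in tumor.

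By the pattern of group means over 17 groups, the gene most like Lyz2 was Pfkfb4 (Pearson r = 0.967), the gene most like Cd63 was Acot9 (0.970), and the gene most like Lpl was Ucp3 (0.949), among 13056 genes. For Vcam1 it was Iglc2 (0.934), an immunoglobulin light chain gene, for Trem2 Tmco3 (0.888), for Cd68 Cd300c2 (0.886) and for Gpnmb Gmpr (0.825). The groups share mice and organs, so these are descriptions with no test.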

How the data were processed

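RNA-seq was compared in 49 libraries of 17 groups from 6 mice. The authors deposited expected counts per gene from RSEM 1.3.1, and FastQC 0.11.9, cutadapt 3.5, STAR 2.7.9a and the mm10 build are also named, per the submitters' processing notes. The annotation release and strand setting are not given in the sources used here. Expected counts were rounded, since 4.64 to 7.92% of values per library were not whole (tolerance 1e-06), and genes with low counts were filtered in each comparison (edgeR filterByExpr, minimum count 10). Symbols were matched for 55141 of 55487 gene IDs. Each organ was fitted alone with edgeR 4.0.16 in R 4.3.3 (TMM scaling, quasi-likelihood test, limma 3.58.1 installed), with Benjamini-Hochberg adjusted p under 0.05 as the threshold over all genes tested. DESeq2 1.42.0, no filter, another size factor, removal of mitochondrial genes, the replicate block and leaving out each replicate were alternatives. Library totals without TMM were added after seeing the data. The scripts were tested on simulated data. Replicates differed by more than sampling noise, and p-values measure the spread between mice within a group. In the main sorted against bulk fits the libraries of the same mouse are not paired.

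Sorted and bulk libraries of 1 number come from sections of the same BP mouse, per the design text, so these numbers pair the samples. The correlations of their deviations from the group means were 0.16, 0.047 and 0.023 in liver, 0.54, 0.69 and -0.10 in spleen, 0.13, 0.42 and 0.096 in marrow, and -0.043, 0.38 and 0.31 in tumor. BP and PBS numbers belong to different mice. The 7 genes and all gene lists were chosen with earlier results of these data known. Also named are the 3 genes most like each member over group means (log2 of CPM + 1, genes reaching 10 CPM in a group), defining genes of the lists, and the 2 called genes with the largest change per list. Itga4, Icam1, Cd9, Angptl4, Mrc1 and Fos were named after their values were seen. The NanoString experiment was not analysed here.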

Additional observations from a re-analysis of the deposited data

Results flagged for a closer look

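The change between nanoparticle-associated and bulk cells differed among spleen, marrow and tumor for Lyz2 (edgeR adjusted p = 0.00454), Lpl (edgeR adjusted p = 0.0161) and Gpnmb (edgeR adjusted p = 0.0426); the log2 changes in that order of organs were -0.94, -0.14 and -2.15 for Lyz2, -1.98, -0.04 and -6.24 for Lpl, and -0.81, 0.19 and -4.61 for Gpnmb. Vcam1 was higher than bulk in the sorted liver cells of all 3 mice (log2 change 1.90) and lower in the sorted spleen cells of all 3 mice (log2 change -0.87). The difference between these organs for Vcam1 was not tested. Cd68 stood at 34.8 CPM in the 1 lymph node library of sorted cells, which entered no comparison, above the 3 PBS lymph nodes at 14.0 to 29.1 CPM.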

How the results depend on the processing

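Counts of called genes moved more than the members' estimates. Between BP and PBS liver, edgeR called 3 genes, 49 without the filter on low counts and 37 came from DESeq2, and leaving out 1 replicate gave 1 to 9. The 0 genes of marrow became 27 without the filter, 4 with DESeq2 and 0 to 1 without a replicate; those of tumor became 138 and those of lymph node 11 with DESeq2, and those of lung 0 to 1 without a replicate. Between sorted and bulk cells, leaving out a mouse gave 8743 to 9707 genes in liver, 875 to 5557 in spleen (6340 with all mice), 74 to 1054 in marrow (1044) and 0 to 46 in tumor (1321). The replicate block, which here is the mouse, gave 2719 genes in marrow and 625 in tumor. In tumor DESeq2 gave 3303 genes and library totals 800. The test over 5 organs called 11 genes, 4 with DESeq2's size factors and 51 without the filter. Library totals, added after seeing the data, moved the share of higher genes among those called from 49.9 to 28.0% in sorted liver, from 47.9 to 35.3% in spleen and from 65.0 to 48.0% in tumor.

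Of 42 BP against PBS values of the members, 18 changed sign under some alternative and 7 changed their call. The call changes were those of Lpl in tumor and of every member except Lyz2 in bulk liver, the comparison that chose the genes. There Vcam1 lost its call in 6 of 12 alternatives and Gpnmb in 2 of 12. Of 28 sorted against bulk values, 7 changed sign and 12 changed their call. The replicate block, whose numbers join different mice between BP and PBS, turned Trem2 in spleen to -0.141. Library totals turned Cd68 and Cd63 in marrow to -0.00225 and -0.0160, and Trem2 and Lpl in sorted liver to -0.338 and -0.0346. Leaving out 1 replicate gave these ranges across 0 between BP and PBS. In spleen Trem2 ranged from -0.75 to 0.37. In marrow the ranges were -0.0592 to 0.0265 for Lyz2, -0.281 to 0.635 for Gpnmb, -0.194 to 0.0655 for Trem2, -0.00116 to 0.0454 for Cd68, -0.0317 to 0.0910 for Cd63 and -0.0127 to 0.169 for Lpl. In tumor they were -0.0361 to 1.32 for Lyz2, -0.564 to 0.0787 for Vcam1, -0.160 to 0.778 for Trem2 and -0.0866 to 0.621 for Cd68. In lymph node they were -2.02 to 0.0727 for Gpnmb and -0.190 to 0.313 for Trem2. In lung they were -0.0117 to 0.862 for Gpnmb, -0.149 to 0.0739 for Vcam1, -0.238 to 0.645 for Trem2, -0.0820 to 0.390 for Cd63 and -0.00314 to 0.448 for Lpl. For sorted against bulk cells they were -0.491 to 0.793 for Trem2 in liver, -0.287 to 0.120 for Cd68 in spleen, -0.101 to 0.551 for Gpnmb in marrow, and in tumor -0.618 to 0.131 for Vcam1, -0.346 to 0.172 for Cd68 and -0.160 to 0.309 for Cd63. The causes were not tested. Depth limits Gpnmb and Trem2 in PBS liver, with 7 and 14 counts in all.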
